A study of Sus scrofa with 9 samples.

Results

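The genes described here are 35 genes of the transcription factor NRF2 and of antioxidant defence, chosen by symbol from 27339 genes counted in pig myoblasts. They cover NRF2 and its regulators, the glutathione and thioredoxin systems, the enzymes that supply NADPH, heme and iron handling, and the superoxide dismutases with catalase. Whether NRF2 controls each of the 35 in these cells was not tested. All but GSTP1, which was not analysed here, had a row in the count table, and all 34 of those passed the filter on low counts, as did 15956 genes in all. Messenger RNA was sequenced from primary myoblasts of Göttingen pigs at passages 7 to 9, the proliferating precursors of skeletal muscle, cultured in medium with serum and chicken embryo extract. The cells carried a doxycycline-inducible transgene, which was human DUX4 in 3 libraries, pig DUXC in 3 and GFP, the control, in 3. All 9 libraries, the GFP controls included, came from cells kept for 16 h in 1 µg/mL doxycycline. Whether libraries of the same group stem from separate cultures or clones is not stated in the labels, so each p-value reflects library-to-library spread that may be technical.

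NRF2, the product of NFE2L2, is held in the cytoplasm by KEAP1, which marks it for destruction. When oxidants or electrophiles modify KEAP1, NRF2 accumulates, pairs with a small MAF protein and binds antioxidant response elements near genes for glutathione synthesis, quinone reduction, heme breakdown, iron storage and NADPH production. DUX4 is a double homeobox factor of the early embryo whose misexpression in muscle underlies facioscapulohumeral muscular dystrophy, and in mouse myoblasts its expression is known to raise sensitivity to oxidative stress. The pig gene DUXC also encodes a protein with a pair of homeodomains.

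Total counts ranged from 36580573 to 44420895 per library. Levels are normalised read counts scaled to CPM, counts per 1e6 reads, given as mean ± SD of n = 3 libraries or library by library in the order of the replicate numbers. They are not divided by transcript length, so levels of different genes are not compared. The DUX4 libraries differed more among themselves (pairwise chi-square of counts divided by its degrees of freedom, 7.06 to 18.6) than the DUXC or GFP libraries did (2.66 to 4.65). Levels of the transgenes were not analysed here, so the groups rest on the labels. The 9 myogenic markers summed to 97.4 to 107 CPM with GFP, 123 to 128 with DUX4 and 65.9 to 68.8 with DUXC, most of it NCAM1. In the GFP group the lineage factors PAX7 (0.402 CPM), MYF5 (0.705 CPM), MYOD1 (1 count) and MYOG (6 counts) were scarce. Single markers did not all follow the sum: of the 6 tested, 3 rose and 1 fell with DUX4, and 3 rose and 3 fell with DUXC. With DUX4 DES fell from 7.15 to 2.10 CPM, and with DUXC PAX7, MYF5 and PAX3 rose (log2 1.47, 1.33 and 1.30). The 7 fibroblast markers summed to 49876 to 53003 CPM with GFP, to 29006 to 32739 with DUX4 and to 25614 to 25633 with DUXC, and the 6 smooth muscle and pericyte markers to 2670.2 to 2859, 871 to 955 and 628 to 657 CPM. Most of the fibroblast sum was COL1A1, COL1A2 and COL3A1. PDGFRA of that list fell with DUX4 but rose with DUXC, from 373 to 926 CPM, and the pericyte marker RGS5 also rose with DUXC, from 0.0929 to 0.495 CPM. The part of these shifts in the results was not tested, and in bulk libraries fewer cells of a type cannot be told apart from less RNA per cell. Markers of endothelial (5.70 to 29.9 CPM in sum), immune (12.5 to 21.9) and adipocyte (0.257 to 9.74) cells were scarce in every library. Their sums were highest with DUXC. The endothelial sum was 5.70 to 6.85 CPM with GFP, 9.79 to 10.6 with DUX4 and 27.2 to 29.9 with DUXC. In the same order the adipocyte sum was 0.257 to 0.462, 3.79 to 3.95 and 9.17 to 9.74 CPM. The immune sum was 15.4 to 18.4, 12.5 to 14.7 and 19.8 to 21.9 CPM. Of the 4 immune markers tested 2 rose and 2 fell with DUXC. The defining immune marker PTPRC had no count with GFP or DUX4 and 16 counts with DUXC.

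With human DUX4 the antioxidant genes moved both ways. HMOX1, the heme oxygenase that opens heme and releases its iron, rose 2.57-fold and GCLC, the catalytic subunit of the first step of glutathione synthesis, rose 1.63-fold, while GPX3, a secreted glutathione peroxidase, fell 5.18-fold. Of the 34 genes 11 rose, 15 fell and 8 did not pass at an adjusted p of 0.05 (edgeR's quasi-likelihood test, two-sided, with Benjamini-Hochberg adjustment over all genes tested). Over all genes tested, 32.9% rose and 31.9% fell, so the shares of 32.4% and 44.1% among the antioxidant genes lay near that background upward and above it downward. The change reached 1.5-fold in 5 raised genes, HMOX1, OSGIN1, TKT, GCLC and GSTM3, and in 1 lowered gene, GPX3, against 15.1% and 10.5% of all genes. The median log2 fold change was -0.02, beside 0.00 over all genes.

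With pig DUXC most of the same 34 genes fell. HMOX1 fell 3.53-fold, GPX3 3.47-fold and the quinone reductase gene NQO1 2.46-fold, and the mitochondrial superoxide dismutase gene SOD2 went the other way, 4.96-fold higher. In all 26 genes fell (76.5%), 6 rose (17.6%) and GSTM3 and MGST1 did not pass, beside 42.3% lower and 40.2% higher over all genes tested. The falls reached 1.5-fold in 21 genes and the rises in MAFF and SOD2, while 20.9% and 28.0% of all genes fell or rose that far. The median was -0.70 on the log2 scale, beside -0.03 over all genes. Abundant genes as a whole fell more often with DUXC: of the 9290 genes with a mean of at least 10 CPM over the 9 libraries 53.8% fell and 35.0% rose, around a median of -0.16 on the log2 scale, while of the 31 antioxidant genes in that range 25 (80.6%) fell and 6 (19.4%) rose. With DUX4 37.0% of the same abundant genes rose and 37.8% fell, and of the 31 antioxidant genes among them 9 (29.0%) rose and 15 (48.4%) fell.

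The direct comparison of the 2 factors had 25 of the 34 genes higher with DUX4 and 6 lower, and the counts were also 25 and 6 when the GFP libraries were left out of the fit. The 6 were SOD2, MAFF, SQSTM1, GPX3, NFE2L2 and TXNRD1, and SRXN1, GSTM3 and MGST1 did not pass. Over all genes tested 40.8% were higher with DUX4 and 41.6% lower, and among abundant genes 52.1% and 36.8%. At least 1.5-fold differences were found in 16 genes higher with DUX4 and in 3, MAFF, SQSTM1 and SOD2, higher with DUXC, beside 21.4% and 28.6% of all genes. HMOX1 differed most, 9.05-fold, and the median log2 difference was 0.60, beside -0.01 over all genes. The plot of shares sets these counts against the backgrounds.

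**Figure D1:**
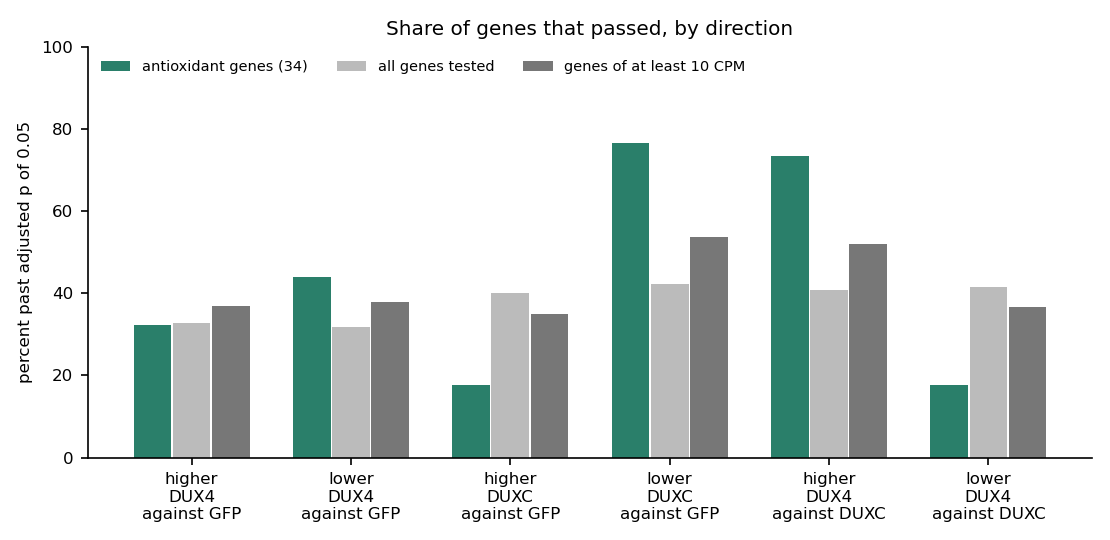
Bars give the percentage of genes that passed an adjusted p of 0.05 in the named direction, for the 34 antioxidant genes (green), all 15956 genes tested (light grey) and the 9290 genes with a mean of at least 10 CPM (dark grey). The green bars stand above both backgrounds for genes lower with DUX4 than with GFP (44.1%, beside 31.9% and 37.8%). They also do so for genes lower with DUXC than with GFP (76.5%, beside 42.3% and 53.8%). The same holds for genes higher with DUX4 than with DUXC (73.5%, beside 40.8% and 52.1%). The green bars hold all 34 genes, of which 31 have a mean of at least 10 CPM.

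**Figure D2:**
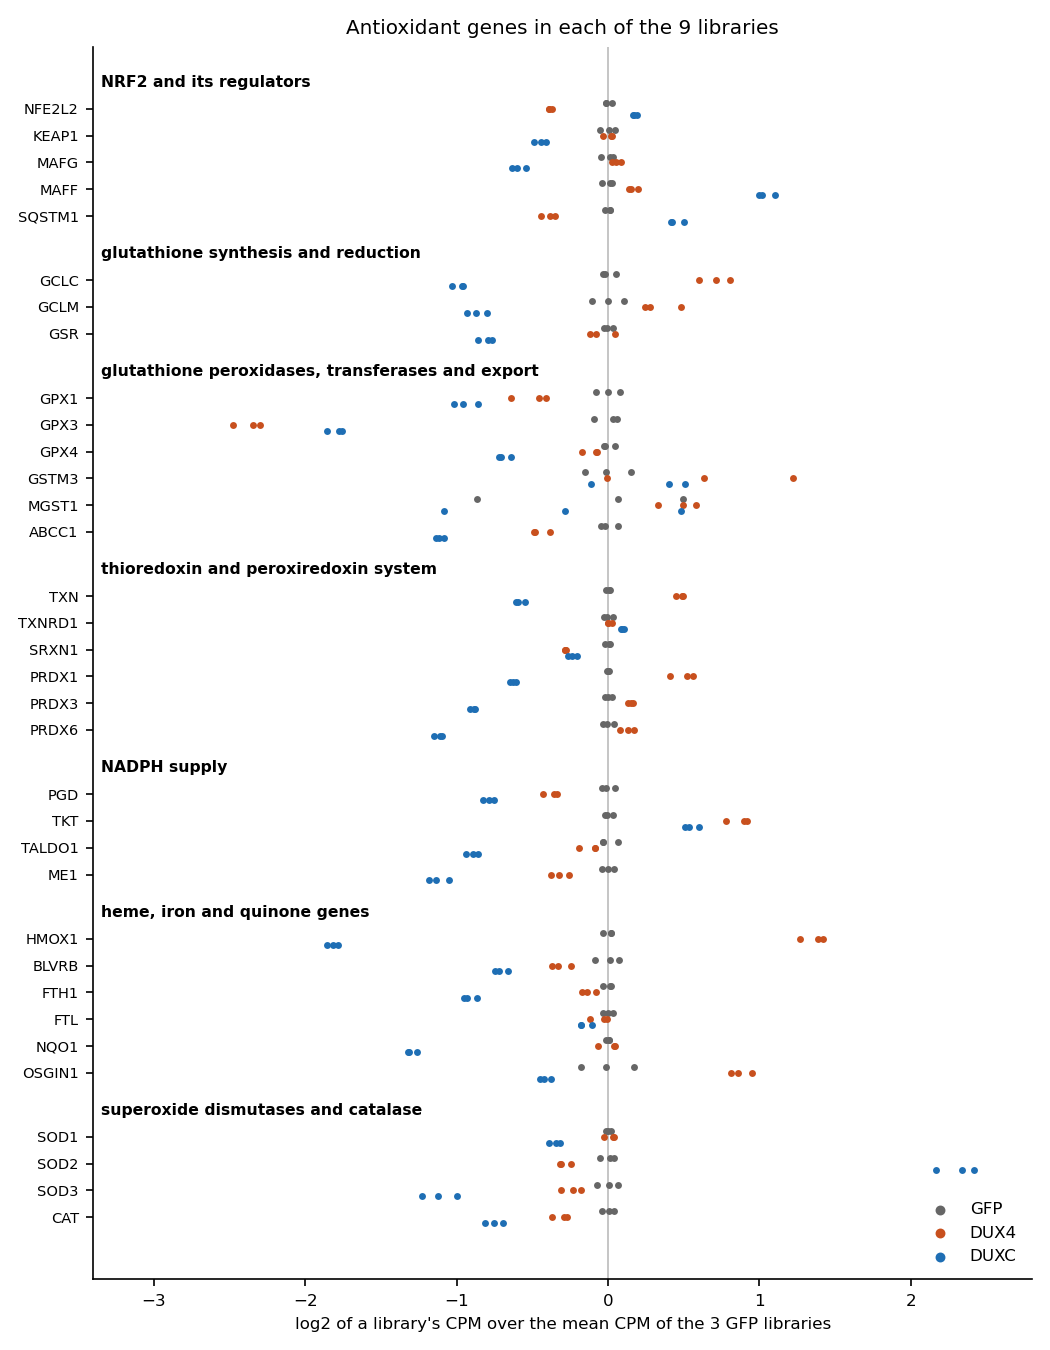
Each point is 1 library, placed by the log2 of its CPM over the mean of the 3 GFP libraries (horizontal axis), with genes grouped by role and groups by colour. DUXC libraries lie left of the GFP libraries for 26 genes, and DUX4 libraries lie right of them for 10 and left of them for 15. Such separation of libraries was not counted over all genes, so it is not shown to be particular to this list.

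NFE2L2 itself moved little and in opposite directions. Its libraries stood at 267, 266 and 274 CPM with GFP, at 208, 205 and 205 CPM with DUX4 and at 300.5, 306 and 303 CPM with DUXC, a fall with DUX4 (log2 -0.38, adjusted p = 4.66e-16) and a rise with DUXC (log2 0.17, adjusted p = 5.93e-07). The 3 groups did not overlap, with DUX4 lowest and DUXC highest. The span of NFE2L2 (chromosome 15, 82967485 to 83146185 in Sscrofa11.1) overlaps those of AGPS and HNRNPA3, so its counts may hold reads of these genes, which had 117 and 361 CPM in the GFP group, 130 and 383 in the DUX4 group and 91.2 and 207 in the DUXC group. KEAP1, the repressor, had 62.7 ± 2.06 CPM with GFP and 62.9 ± 1.38 CPM with DUX4, a log2 difference of 0.00 with a 95% confidence interval of -0.07 to 0.08, and fell to 46.0 ± 1.30 CPM with DUXC (log2 -0.45).

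The autophagy receptor gene SQSTM1, whose product p62 binds KEAP1, followed the same order as NFE2L2. It stood at 290.0, 283 and 290.5 CPM with GFP, at 212, 226 and 221 CPM with DUX4 and at 384, 408 and 385 CPM with DUXC. All DUX4 libraries lay below and all DUXC libraries above the control libraries (log2 -0.39 and 0.45). Of the small MAF genes, which encode the binding partners of NRF2, MAFF rose and MAFG fell with DUXC. MAFK, outside the list, fell with both factors (log2 -0.23 with DUX4 and -1.06 with DUXC). MAFF stood at 38.9, 40.9 and 40.4 CPM with GFP, at 44.4, 44.2 and 46.0 CPM with DUX4 and at 79.8, 86.3 and 81.3 CPM with DUXC, a rise with both factors without overlap (log2 0.16 and 1.04). MAFG stood at 49.7, 52.0 and 52.5 CPM with GFP, at 53.3, 54.5 and 52.4 CPM with DUX4 and at 33.0, 35.3 and 33.9 CPM with DUXC. Its DUXC libraries lay below all others (log2 -0.59 against GFP), and DUX4 and GFP libraries overlapped (adjusted p = 0.222).

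Both subunit genes of glutamate-cysteine ligase rose with DUX4 and fell with DUXC. Glutamate-cysteine ligase, the enzyme of the limiting step of glutathione synthesis, joins a catalytic subunit from GCLC and a modifier subunit from GCLM. GCLC (chromosome 7, 27209565 to 27253535) stood at 124, 124 and 131 CPM with GFP, at 221, 208 and 192 CPM with DUX4 and at 64.8, 62.0 and 65.0 CPM with DUXC. The groups did not overlap, and the log2 fold changes were 0.71 (SE 0.038, adjusted p = 1.3e-18) with DUX4 and -0.98 (SE 0.040, adjusted p = 1.21e-22) with DUXC. GCLM stood at 98.0, 106 and 91.1 CPM with GFP, at 137, 119 and 116 CPM with DUX4 and at 51.5, 53.8 and 56.3 CPM with DUXC. Its groups did not overlap either, and it moved the same ways with a wider spread, by log2 0.34 (adjusted p = 0.00583) and -0.87 (adjusted p = 1.79e-05). The reductase gene GSR, whose enzyme returns oxidised glutathione to its reduced form with NADPH, stood at 54.4, 52.7 and 52.2 CPM with GFP, at 54.8, 50.4 and 48.8 CPM with DUX4 and at 29.3, 30.7 and 31.3 CPM with DUXC. It fell with DUXC (log2 -0.80), while DUX4 and GFP overlapped (adjusted p = 0.301, 0.0427 to 0.803 over the alternatives). GSS, outside the list, encodes the enzyme of the next step of synthesis and fell with both factors, from 39.1 ± 2.14 CPM to 30.6 ± 1.74 CPM with DUX4 (log2 -0.35) and 22.0 ± 0.990 CPM with DUXC (log2 -0.83). For GSR, the 0.0427 came without DUX4 replicate 1, which held the highest of the 3 DUX4 values for GSR, GCLC and GCLM.

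The 3 glutathione peroxidase genes of the list, which encode selenoproteins that reduce peroxides, fell with both factors. Of the related genes outside it, GPX7 also fell with both (log2 -0.20 with DUX4 and -1.01 with DUXC), GPX8 rose with DUX4 (log2 0.46) and fell with DUXC (log2 -0.54), and GPX2 was too low to test. GPX3 (chromosome 16, 71980467 to 71989011) stood at 72.1, 78.6 and 80.2 CPM with GFP, at 13.8, 15.6 and 15.1 CPM with DUX4 and at 21.3, 22.5 and 22.8 CPM with DUXC. Every library with DUX4 or DUXC lay far below every control library, and GPX3 was the gene among the 34 that fell with both factors, fell more with DUX4 (log2 -2.37, SE 0.050) than with DUXC (log2 -1.79, SE 0.047) and passed in that direction in the direct comparison (log2 -0.58, adjusted p = 5.55e-13). GPX1, the cytosolic enzyme, stood at 501, 475 and 529.8 CPM with GFP, at 321, 366 and 377 CPM with DUX4 and at 258, 277 and 249 CPM with DUXC. The groups were ordered from GFP down to DUX4 (log2 -0.50, adjusted p = 0.000641) and to DUXC (log2 -0.94, adjusted p = 9.43e-06). GPX4, which reduces lipid peroxides in membranes, stood at 134, 134 and 140.3 CPM with GFP, at 121, 129 and 129 CPM with DUX4 and at 83.1, 87.1 and 82.7 CPM with DUXC. Its fall with DUXC was 1.61-fold, and that with DUX4 was small (log2 -0.11, adjusted p = 0.00502, 0.00319 to 0.0548 in the alternatives) and did not hold with DESeq2, at 0.0540, and without DUX4 replicate 1, at 0.0548.

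ABCC1, a pump that exports glutathione conjugates, stood at 75.6, 81.7 and 77.1 CPM with GFP, at 55.9, 55.7 and 60.0 CPM with DUX4 and at 36.9, 35.5 and 36.0 CPM with DUXC. It fell 1.37-fold with DUX4 and 2.16-fold with DUXC, with no overlap between any pair of groups. The transferases of the list, which attach glutathione to electrophiles, were scarce. GSTM3 stood at 1.10, 1.00 and 1.23 CPM with GFP, at 1.11, 1.72 and 2.59 CPM with DUX4 and at 1.47, 1.03 and 1.58 CPM with DUXC. One DUX4 library lay within the control range and the others above it, and the call (log2 0.69, SE 0.23, adjusted p = 0.0109, alternatives 4.15e-05 to 0.169) depended on DUX4 replicate 3, without which it was not made (log2 0.36, adjusted p = 0.169), and on GFP replicate 2 (0.0561 without it). MGST1, a membrane-bound transferase, had 0.328 ± 0.142 CPM in GFP cells, 0.455 ± 0.0398 in DUX4 cells and 0.294 ± 0.154 in DUXC cells, and no comparison passed. Its 95% interval for DUX4 against GFP, -0.26 to 1.19 on the log2 scale, shows how little this depth can resolve.

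In the thioredoxin system, which passes electrons from NADPH to peroxiredoxins, the genes for thioredoxin and the peroxiredoxins of the list changed more than TXNRD1, the reductase gene of the list. Thioredoxin itself, TXN, stood at 281, 280.2 and 276 CPM with GFP, at 394, 392 and 381 CPM with DUX4 and at 184, 183 and 190.3 CPM with DUXC. The groups were far apart, up by log2 0.48 with DUX4 (adjusted p = 1.83e-19) and down with DUXC (log2 -0.59, adjusted p = 5.41e-23). Thioredoxin reductase TXNRD1, a selenoprotein, had 352 ± 6.75 CPM in GFP cells, 354 ± 3.44 in DUX4 cells and 376 ± 2.40 in DUXC cells. DUX4 and GFP differed by a log2 of 0.01 (95% interval -0.05 to 0.07), and the small rise with DUXC (log2 0.09, adjusted p = 0.00279, 5.09e-10 to 0.15 in the alternatives) did not hold with no filter on low counts, at 0.15. The difference of TXNRD1 between the 2 factors (log2 -0.09, adjusted p = 0.00579, range 1.07e-07 to 0.209) was not called under that setting either, at 0.209. Outside the list, the reductase genes TXNRD2 and TXNRD3 fell with DUXC (log2 -0.96 and -0.96) and less with DUX4 (log2 -0.21 and -0.35). The mitochondrial thioredoxin gene TXN2 fell with DUXC (log2 -0.98) and did not pass with DUX4 (log2 0.05, 95% interval -0.04 to 0.14).

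The 3 peroxiredoxin genes of the list, whose enzymes reduce hydrogen peroxide, rose with DUX4 and fell with DUXC. Outside the list, PRDX2 and PRDX4 also rose with DUX4 (log2 0.16 and 0.40) and fell with DUXC (log2 -0.52 and -0.45). PRDX5 fell with both factors (log2 -0.30 with DUX4 and -0.83 with DUXC). PRDX1, the abundant cytosolic enzyme (chromosome 6, 165847390 to 165859918), stood at 658, 661 and 653 CPM with GFP, at 971, 941 and 871 CPM with DUX4 and at 420.4, 432 and 426 CPM with DUXC. The groups did not overlap, and the changes were log2 0.50 and -0.63, with SE 0.031 and 0.031. PRDX3, the mitochondrial enzyme, stood at 180.3, 177 and 174 CPM with GFP, at 194, 199 and 197 CPM with DUX4 and at 94.2, 96.3 and 95.7 CPM with DUXC, and PRDX6, which also repairs phospholipids, at 231, 227 and 238 CPM with GFP, at 253, 245 and 261 CPM with DUX4 and at 107, 108 and 105 CPM with DUXC. In both the groups did not overlap, the rise with DUX4 was small (log2 0.15 and 0.13, adjusted p = 3.18e-05 and 0.000376) and the fall with DUXC larger (log2 -0.89 and -1.12). Sulfiredoxin SRXN1, which repairs overoxidised peroxiredoxins, fell by similar amounts with both factors, from 249 ± 3.00 to 205 ± 0.794 CPM with DUX4 and 211 ± 4.28 CPM with DUXC. The log2 difference between the factors was -0.05, with a 95% interval of -0.11 to 0.01 (adjusted p = 0.154, 2.51e-05 to 0.933 over the alternatives). SRXN1 was called lower with DUX4 than with DUXC when scaled by library size only (2.51e-05) or by the size factors of DESeq2 (0.00278), and in DESeq2 itself (0.00282).

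**Figure D3:**
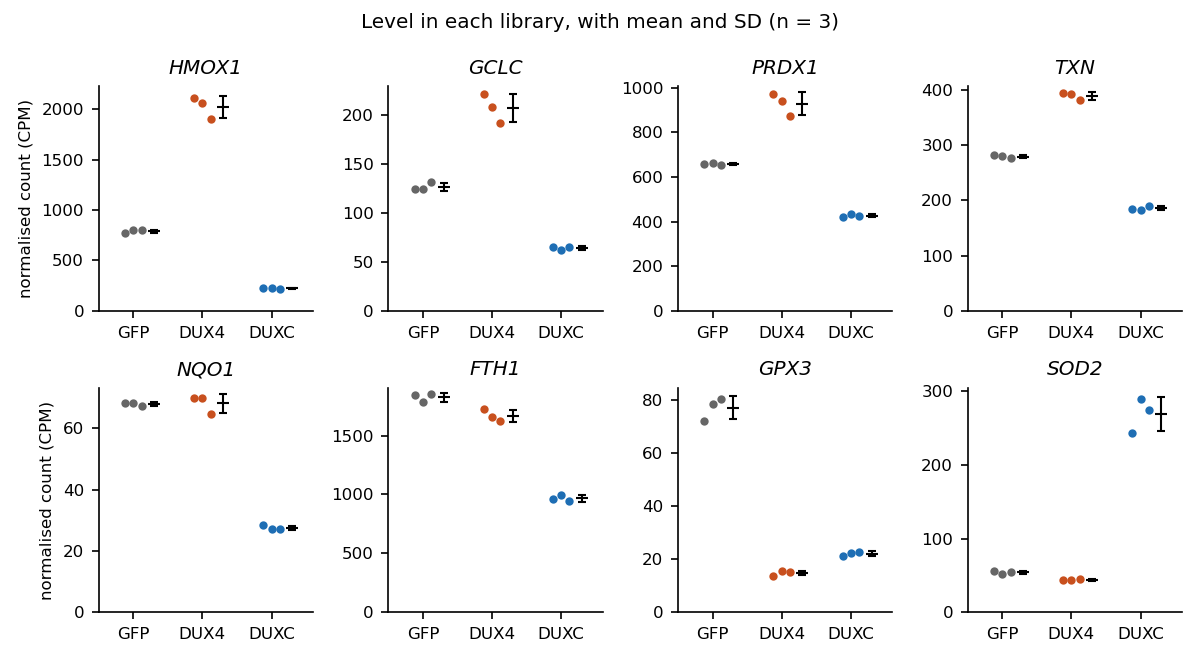
Points are the CPM (vertical axis, from 0) of the 3 libraries of each group for 8 genes, and bars give mean ± SD. HMOX1, GCLC, PRDX1 and TXN are highest with DUX4 and lowest with DUXC, NQO1 and FTH1 are lowest with DUXC, GPX3 is low with both factors, and SOD2 is high with DUXC (244 to 289 CPM).

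Of the 4 NADPH genes, transketolase parted from the rest. TKT, an enzyme of the non-oxidative pentose phosphate pathway, stood at 98.2, 97.2 and 101 CPM with GFP, at 169.5, 186 and 184 CPM with DUX4 and at 143, 149.8 and 141 CPM with DUXC. It was, with MAFF, 1 of 2 genes that rose with both factors, and rose more with DUX4 (log2 0.86) than with DUXC (log2 0.55), a difference that passed (adjusted p = 1.36e-11). PGD, which makes NADPH in the oxidative part of that pathway, stood at 257, 262 and 273 CPM with GFP, at 196, 207 and 209 CPM with DUX4 and at 157, 154 and 149 CPM with DUXC. TALDO1, transaldolase, stood at 231, 232 and 247 CPM with GFP, at 207, 223 and 223 CPM with DUX4 and at 128, 131 and 124 CPM with DUXC. ME1, the cytosolic malic enzyme and another source of NADPH, stood at 93.6, 91.0 and 88.5 CPM with GFP, at 76.1, 72.8 and 70.1 CPM with DUX4 and at 41.4, 40.0 and 43.9 CPM with DUXC. All 3 were lowest with DUXC and highest with GFP, with no overlap between groups. The log2 fold changes of PGD, TALDO1 and ME1 were -0.37, -0.12 and -0.32 with DUX4, and with DUXC they were -0.79, -0.89 and -1.12. TALDO1 overlaps GATD1, which had 65.0, 73.5 and 38.9 CPM in the GFP, DUX4 and DUXC groups.

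HMOX1 had the largest difference between any pair of groups among the 34 genes. Its libraries stood at 769, 798 and 799 CPM with GFP, at 2108, 2066 and 1902 CPM with DUX4 and at 224, 229 and 218 CPM with DUXC. All DUX4 libraries lay above and all DUXC libraries below the control libraries, with log2 fold changes of 1.36 (SE 0.032, adjusted p = 1.76e-34) and -1.82 (SE 0.033, adjusted p = 2.22e-39). HMOX1 has no place on an assembled chromosome in the annotation, so its overlap with other genes was not assessed. BLVRB, which encodes a biliverdin reductase, stood at 24.7, 26.4 and 27.5 CPM with GFP. It had 20.9, 22.1 and 20.3 CPM with DUX4 and 15.9, 16.6 and 15.6 CPM with DUXC. It fell with both factors (log2 -0.31 and -0.71), and the groups did not overlap.

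The ferritin genes, whose proteins assemble into the iron storage shell, changed by different amounts. FTH1, the heavy chain with the ferroxidase site (chromosome 2, 9535051 to 9537979), stood at 1841, 1781 and 1849 CPM with GFP, at 1723, 1656 and 1622 CPM with DUX4 and at 958, 999 and 945 CPM with DUXC. It fell 1.89-fold with DUXC and less with DUX4 (log2 -0.13), and the 3 groups lay apart. FTL, the light chain, had 2225 ± 53.7 CPM with GFP, 2149 ± 87.5 with DUX4 (log2 -0.05, adjusted p = 0.155) and 2001 ± 58.4 with DUXC. The small fall of FTL with DUXC (log2 -0.15, adjusted p = 1.76e-05, 4.21e-11 to 0.384 in the alternatives) did not hold with library size alone, at 0.384. Its difference between the factors (log2 0.10, adjusted p = 0.00244, 1.68e-06 to 0.958 over the alternatives) did not hold when scaled by library size only (0.958) or by the size factors of DESeq2 (0.128), nor in DESeq2 itself (0.0919). The ratio of FTH1 to FTL counts within a library, which any scaling leaves as it is, was 0.847, 0.802 and 0.811 with GFP, 0.841, 0.749 and 0.742 with DUX4 and 0.486, 0.483 and 0.481 with DUXC. The DUXC ratios lay below all others, and an exact two-sided permutation test of the log2 ratio gave p = 0.1 for DUXC against either other group, the smallest that 3 libraries against 3 can give, and p = 0.3 for DUX4 against GFP. Adjusted over the 9 comparisons of ratios made, these were 0.129 and 0.3.

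A pair of other ratios of partner genes was compared in the same way. The ratio of GCLC to GCLM was 1.29 ± 0.135 with GFP, 1.67 ± 0.0716 with DUX4 and 1.19 ± 0.0606 with DUXC, and the DUX4 libraries lay above all others (exact permutation p = 0.1, adjusted 0.129), while DUXC and GFP overlapped (p = 0.2, adjusted 0.225). The ratio of NFE2L2 to KEAP1 was 4.28 ± 0.0906 with GFP, 3.27 ± 0.0694 with DUX4 and 6.59 ± 0.165 with DUXC, with no overlap (exact permutation p = 0.1 for each pair, adjusted 0.129). The spans of SQSTM1, ABCC1, TXN, PRDX6, BLVRB and SOD1 also overlap another gene, namely MRNIP, MIR7135, LOC110256047, LOC100624136, LOC102158315 and SCAF4 in that order. Ferritin and thioredoxin genes have near-identical processed copies in mammalian genomes, and how reads matching several places were counted is not given in the sources used here, so their levels are uncertain to that extent.

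**Figure D4:**
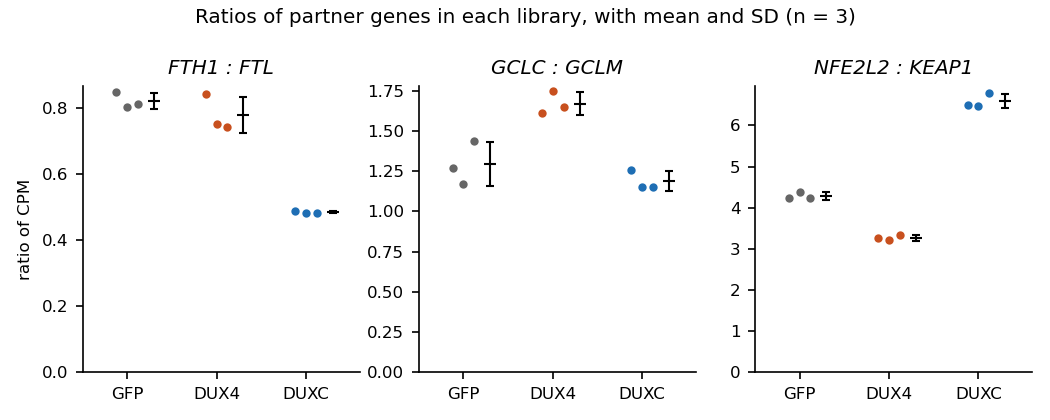
Points are the ratio of CPM of the named pair of genes (vertical axis, from 0) in each library, and bars give mean ± SD for n = 3. FTH1 to FTL is near 0.483 in the DUXC libraries and 0.742 or more elsewhere, and NFE2L2 to KEAP1 is lowest with DUX4 and highest with DUXC.

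NQO1, a quinone reductase often used as a readout of NRF2 activity, did not follow HMOX1 with DUX4. It stood at 68.2, 68.1 and 67.1 CPM with GFP, at 69.9, 69.7 and 64.6 CPM with DUX4 and at 28.3, 27.2 and 27.2 CPM with DUXC. DUX4 and GFP libraries overlapped, with a log2 difference of 0.01 and a 95% interval of -0.07 to 0.08, while with DUXC every library was lower (log2 -1.30, SE 0.041, adjusted p = 1.44e-31). The gene lies on chromosome 6, 17292962 to 17302593. OSGIN1, a growth inhibitor induced by oxidative stress, stood at 6.95, 6.21 and 7.90 CPM with GFP, at 12.3, 13.6 and 12.7 CPM with DUX4 and at 5.24, 5.14 and 5.40 CPM with DUXC. It rose with DUX4 (log2 0.88) and fell with DUXC (log2 -0.42), and no groups overlapped.

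Among the enzymes that remove superoxide and hydrogen peroxide, SOD2 was the one gene of 4 that rose with DUXC. SOD2 (chromosome 1, 7679352 to 7689564) encodes the manganese enzyme of mitochondria and stood at 55.8, 52.2 and 54.9 CPM with GFP, at 43.6, 43.8 and 45.7 CPM with DUX4 and at 244, 289 and 274 CPM with DUXC. All DUXC libraries lay far above every other library (log2 2.31, SE 0.050, adjusted p = 1.26e-19), and with DUX4 the gene fell by a small amount (log2 -0.29, adjusted p = 8.07e-05). SOD3, the extracellular enzyme, stood at 133, 120.5 and 127 CPM with GFP, at 102, 112 and 108 CPM with DUX4 and at 58.1, 63.5 and 53.9 CPM with DUXC. CAT, catalase of the peroxisome, stood at 88.5, 85.9 and 90.6 CPM with GFP, at 72.2, 68.2 and 73.1 CPM with DUX4 and at 54.5, 50.4 and 52.3 CPM with DUXC. Both were highest with GFP and lowest with DUXC, with log2 fold changes of -0.24 and -0.31 with DUX4 and -1.11 and -0.75 with DUXC. SOD1, the cytosolic copper and zinc enzyme, had 105 ± 1.16 CPM with GFP and 106 ± 2.66 CPM with DUX4 (adjusted p = 0.683, 95% interval -0.05 to 0.08) and fell to 82.6 ± 2.10 CPM with DUXC.

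Over the 3 groups, 24 of the 34 genes differed in every pairwise comparison, and the direction against GFP was opposite for 11. GCLC, GCLM, TXN, PRDX1, PRDX3, PRDX6, HMOX1 and OSGIN1 rose with DUX4 and fell with DUXC. NFE2L2, SQSTM1 and SOD2 fell with DUX4 and rose with DUXC. A further 12 fell with both factors, and 7 passed with DUXC and not with DUX4, namely KEAP1, MAFG, GSR, TXNRD1, FTL, NQO1 and SOD1. All of these 7 except TXNRD1 were lower with DUXC, and each of them also passed the direct comparison of the factors. The 2 comparisons against GFP share the 3 control libraries, so their counts are not independent. Over all genes tested, 32.9% rose and 31.9% fell with DUX4, and 40.2% rose and 42.3% fell with DUXC. How many of all genes show each pattern is not given here, so the pattern counts are a description without a background.

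**Figure D5:**
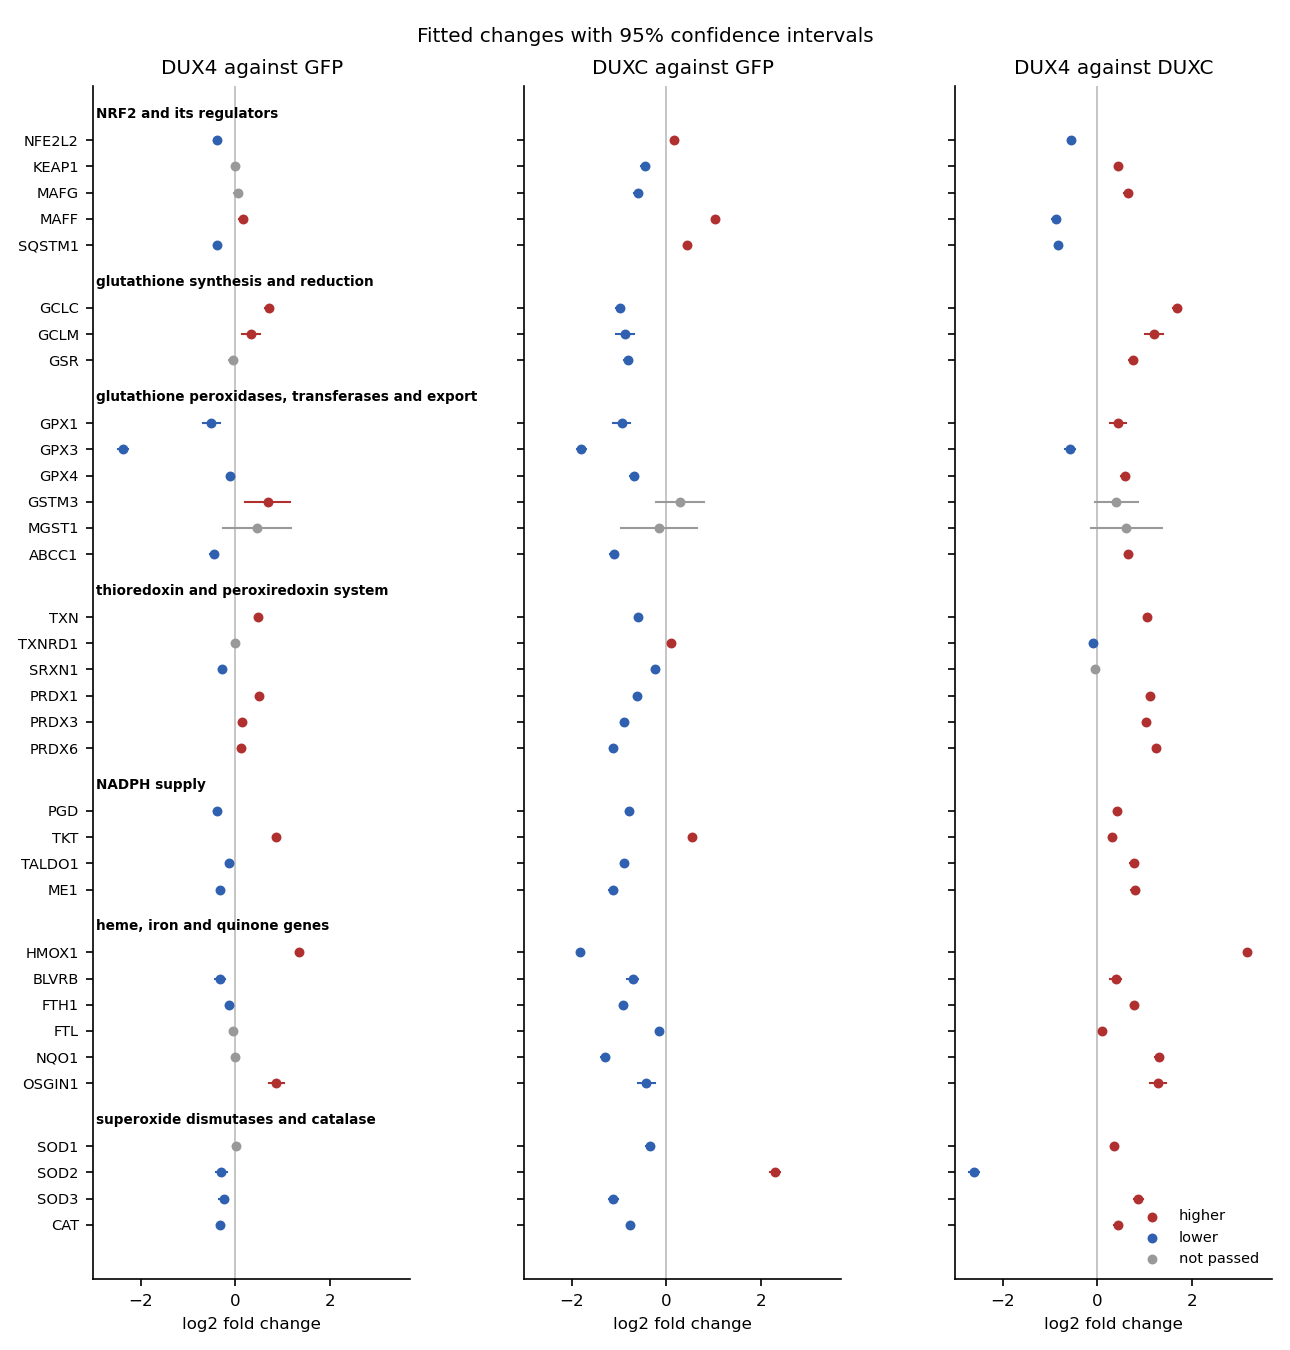
Points are fitted log2 fold changes and lines their 95% confidence intervals (horizontal axis) for the 34 genes in the 3 comparisons, red where higher, blue where lower and grey where the adjusted p was 0.05 or above. In the middle panel 26 points are blue, with SOD2 at 2.31 the farthest to the right, and in the right panel HMOX1 reaches 3.18.

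Other genes of the same pathways, 90 in all of which 87 were tested, moved in both directions. With DUX4 29 rose (33.3%) and 44 fell (50.6%), beside 32.9% and 31.9% of all genes tested. By list, 45.5% of the 11 NRF2 partners tested rose with DUX4 and 36.4% fell. The shares were 53.3% and 33.3% for the 15 glutathione genes. They were 23.5% and 64.7% for the 17 thioredoxin and peroxidase genes. For the 19 detoxification and export genes they were 21.1% and 63.2%. The 13 NADPH genes had 30.8% and 38.5%, and the 12 heme and iron genes 33.3% and 58.3%. These lists are small. The splits of the NRF2 partners (5 higher, 4 lower) and of the NADPH genes (4 higher, 5 lower) are not read as a direction. With DUXC 25 rose (28.7%) and 59 fell (67.8%), beside 40.2% and 42.3% of all genes. Between the factors 52 were higher with DUX4 (59.8%) and 28 lower (32.2%), beside 40.8% and 41.6%. Their median log2 fold changes were -0.10, -0.51 and 0.30. The largest rises with DUX4 were of ABCC2, an exporter of conjugates, from 2.74 ± 0.334 to 8.73 ± 0.905 CPM, of the glutaredoxin gene GLRX, from 45.6 ± 0.402 to 133 ± 5.72 CPM, and of GGCT, a gene of glutathione breakdown, from 4.16 ± 0.386 to 7.63 ± 0.272 CPM. GGT5, whose enzyme cleaves extracellular glutathione conjugates, fell from 3.85 ± 0.179 to 0.677 ± 0.203 CPM. The ferrireductase gene STEAP3 fell from 28.4 ± 0.950 to 7.43 ± 0.528 CPM, and BACH2, a repressor of the same family as BACH1, from 1.85 ± 0.285 to 0.511 ± 0.200 CPM.

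With DUXC, ABCC2 reached 57.0 ± 2.09 CPM (log2 4.38), the iron importer gene SLC11A2 went from 21.6 ± 0.225 to 101 ± 2.18 CPM (log2 2.23) and NFE2L3, a relative of NRF2, from 0.465 ± 0.243 to 1.46 ± 0.112 CPM. The transferase gene MGST2 (log2 -1.79), STEAP3 (log2 -1.52) and GGT5 (log2 -1.34) fell most. GLRX (log2 2.00), GSTO1, a transferase of the omega class (log2 1.16), and TFRC, the transferrin receptor (log2 1.06), stood highest with DUX4 relative to DUXC, and BACH2 (log2 -2.73), ABCC2 (log2 -2.71) and SLC11A2 (log2 -2.16) lowest. The largest adjusted p-value among all these named results in edgeR was 9.8e-08, for NFE2L3, whose span overlaps that of HNRNPA2B1. The spans of BACH2 (GJA10 and LOC110260363), GGT5 (LOC100520275) and MGST2 (MAML3) also overlap other genes, so their low counts may hold reads of these. For SLC11A2 overlap was not assessed.

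A few more of these genes, chosen after their values were seen, encode regulators of HMOX1 or NRF2 and proteins of glutathione and iron handling. BACH1, a repressor that competes with NRF2 at HMOX1, had 68.8 ± 1.66 CPM with GFP and 73.5 ± 2.02 CPM with DUX4 and rose to 133 ± 4.12 CPM with DUXC (log2 0.96). Its rise with DUX4 was small (log2 0.10, adjusted p = 0.0166 in edgeR). CUL3, the scaffold of the ligase that degrades NRF2, went from 108 ± 3.08 CPM to 125 ± 2.11 with DUX4 and 205 ± 6.05 with DUXC. RBX1, of the same ligase, had 109 ± 4.82 CPM with GFP, did not pass with DUX4 and fell to 68.2 ± 1.08 CPM with DUXC. SLC7A11, the cystine importer that feeds glutathione synthesis, went from 155 ± 1.10 CPM to 271 ± 17.9 with DUX4 and 178 ± 10.1 with DUXC, a rise with both. SLC3A2, its partner gene, rose from 182 ± 6.91 to 224 ± 8.74 CPM with DUX4 but fell to 123 ± 3.34 CPM with DUXC. The iron exporter gene SLC40A1 fell from 155 ± 2.36 CPM to 76.6 ± 5.71 with DUX4 and 85.2 ± 1.53 with DUXC.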

How the data were processed

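Poly(A) RNA of 9 libraries was sequenced after a stranded mRNA kit, per the labels. The authors deposited raw counts per gene, made with featureCounts after Trim Galore trimming and CASAVA 1.9 base calling on Sscrofa11.1, per the submitters' processing notes. The column headers name Subread. The aligner's version, the annotation, the strand setting and the treatment of reads matching several places are, in the sources used here, not given, so overlapping genes and near-identical copies may share reads. Total counts per library were 36580573 to 44420895.

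Genes were kept by edgeR's filter on low counts, scaled by TMM and tested in all 9 libraries with edgeR 4.0.16 (quasi-likelihood test, two-sided, Benjamini-Hochberg over 15956 genes, R 4.3.3), without a replicate block. The common dispersion was 0.00114, with 6 residual degrees of freedom. Alternatives used DESeq2 1.42.0, limma 3.58.1, other scalings, no filter, only the groups compared, a replicate block and each library left out. The fitting code was also run on simulated counts. These had the same spread for all genes and far fewer changed genes than the data. That run checks the code and not the calls made here. Genes of the list with at least a 1.5-fold difference in any comparison are given library by library. The members and lists were chosen with earlier results of these data known. The labels do not say whether equal replicate numbers share a culture or a day. Correlations of same-numbered residuals were -0.0258 to 0.0318. Each library was also set against the libraries of each other group, and the same number correlated best in 8 of 18 cases. The background of genes with a mean of at least 10 CPM was added after the data were seen. So were the exact permutation tests of the ratios of partner genes. After the data were seen, GSS, GPX2, GPX7, GPX8, PRDX2, PRDX4, PRDX5, TXNRD2, TXNRD3, TXN2 and MAFK were chosen among the genes outside the list.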

Additional observations from a re-analysis of the deposited data

Results flagged for a closer look

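A set of 11 genes moved in opposite directions against GFP with DUX4 and with DUXC. How many of all genes did so is not given here. For the 11, the difference between DUX4 and DUXC is given as a description, since choosing genes with opposite calls fixes its direction. On the log2 scale, the genes higher with DUX4 differed by 3.18 for HMOX1, 1.69 for GCLC, 1.29 for OSGIN1, 1.25 for PRDX6, 1.20 for GCLM, 1.12 for PRDX1, 1.06 for TXN and 1.04 for PRDX3. The genes higher with DUXC differed by -2.60 for SOD2, -0.84 for SQSTM1 and -0.56 for NFE2L2.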

How the results depend on the processing

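The counts of antioxidant genes called stayed within 1.5 times their reported values under all 16 alternatives, from 10 to 11 higher and 14 to 15 lower for DUX4 against GFP, 5 to 6 and 25 to 26 for DUXC against GFP, and 24 to 26 and 5 to 7 for DUX4 against DUXC. No gene reversed a called direction. With a replicate block the counts were 11 and 15, 6 and 26, and 25 and 6, as without it. Whether the replicate numbers pair the libraries is not stated in the labels. Of 102 results for single genes 89 were called, and 83 of these were called under every alternative. The 6 lost under at least 1 setting belong to GPX4, GSTM3, TXNRD1 and FTL, and 4 results were gained, for GSR, GSTM3, MGST1 and SRXN1. GSTM3 passed between the factors with no filter on low counts, at 0.024, and without DUX4 replicate 1, at 0.00156, and MGST1 without DUXC replicate 3, at 0.024. The cause was not tested. Library size alone moved the median of all genes by 0.12 on the log2 scale for DUXC against GFP and by -0.10 for DUX4 against DUXC. Depth limits what can be said of MGST1, at under 1 CPM in every group, and the DUX4 libraries of GSTM3 ranged from 1.11 to 2.59 CPM.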
